A study of Mus musculus with 8 samples.

Results

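Tight junction genes were followed in mouse thymic epithelial cells (TECs) through 9 members chosen by name: the claudins *Cldn1*, *Cldn3*, *Cldn4*, *Cldn6*, *Cldn7* and *Cldn12*, occludin (*Ocln*), and the zonula occludens genes *Tjp1* and *Tjp3*. They are 9 of the 56923 genes counted. All 9 were among the 14504 genes tested, those with at least 1 CPM (counts scaled to library size) in at least 3 of the 8 libraries, and each member reached 1 CPM in 7 or 8 libraries. RNA was sequenced in 4 groups of wild-type C57BL/6J TECs with 2 libraries each, all starting from EpCAM+ cells sorted from E16.5 thymi after removal of cells with blood, endothelial or PDGFR+ mesenchymal surface markers. *In vivo* TECs were lysed straight after the sort. 2D TECs were grown to a monolayer on laminin for 3 days. Organoids were grown in Matrigel, a basement membrane hydrogel, and collected at day 3 (D3) or day 7 (D7). The cultured groups shared a serum-free medium with FGF7, and a ROCK inhibitor was present in the first days of organoid culture. The untreated comparator throughout is the *in vivo* group, and 2D and D3 organoids are matched for time in culture.

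Tight junctions seal neighbouring epithelial cells near their apical edge. Claudins span the membrane and decide which ions and solutes pass between cells, occludin and its MARVEL relatives join the same strands, and the zonula occludens proteins anchor the strands to actin inside the cell. In the thymus the epithelium forms an open mesh rather than a lining, and claudin-3 and claudin-4 are known as surface marks of embryonic progenitors of *Aire*-expressing medullary TECs.

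Library totals were between 5084715 and 7612532 counts, so that 1 count stood for 0.124 to 0.198 CPM. The floor of detection was set at 3 counts per library, a limit that covers counting error only. The labelled cell type was checked by detection only, and each of 8 TEC markers was above the floor in every group. Their levels were not equal, with 3 of the 8 higher and 4 lower *in vivo* than in 2D (edgeR adjusted p of at most 0.05). The TEC regulator gene *Foxn1* had means of 249 CPM *in vivo*, 6.69 CPM in 2D, 9.22 CPM in D3 organoids and 72.9 CPM in D7 organoids. Replicate libraries were not repeats of 1 library, since chi-square per degree of freedom between them was 6.82 to 8.7. Summed over 8 genes, thymocyte markers reached 272 to 633 CPM *in vivo*, where 6 of the 8 passed the floor, and 3.72 to 13.7 CPM in the cultured groups. Of 8 endothelial markers *Cdh5*, *Cldn5* and *Tie1* were at 0 in every library, and the list summed to at most 5.22 CPM. Mesenchymal markers summed to 18.3 to 80.9 CPM, myeloid markers to at most 12.3 CPM and erythroid markers to at most 12 CPM. In these bulk samples fewer cells of a type and less RNA per cell cannot be told apart. Reads come from the 3′ ends of transcripts, and levels below are compared between groups and not between genes.

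The mean level of 8 of the 9 members was highest in 2D, and only *Tjp3* had its highest mean elsewhere, in D7 organoids. The claudins are described first, beginning with *Cldn4* and *Cldn3*, which encode barrier-forming claudins and lie next to each other in the genome. On GRCm39, *Cldn4* spans chromosome 5 from 134973973 to 134975788 on the minus strand and *Cldn3* spans 135015068 to 135016326 on the plus strand. The genes point away from each other, 39279 bases apart, with 0 protein-coding genes between them.

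The 250 bases upstream of the annotated start of both genes are shown because the pair had a similar pattern over the 8 libraries (below), and their sequence is the part of each gene where motifs of epithelial regulators would be looked for. The likeness was not particular to this pair, since *Cldn7*, on chromosome 11, was nearly as close to *Cldn3* (below). Sequences are from RefSeq, matched to GRCm39 at chr5:134975789-134976038 for *Cldn4* (minus strand) and chr5:135014818-135015067 for *Cldn3* (plus strand), and capitals mark the motif letters found on either strand.
Cldn4: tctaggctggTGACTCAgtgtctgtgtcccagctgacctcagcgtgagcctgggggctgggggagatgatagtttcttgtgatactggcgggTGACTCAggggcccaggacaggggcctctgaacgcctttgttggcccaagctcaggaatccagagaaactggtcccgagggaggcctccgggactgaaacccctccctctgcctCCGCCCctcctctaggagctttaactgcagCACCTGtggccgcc
Cldn3: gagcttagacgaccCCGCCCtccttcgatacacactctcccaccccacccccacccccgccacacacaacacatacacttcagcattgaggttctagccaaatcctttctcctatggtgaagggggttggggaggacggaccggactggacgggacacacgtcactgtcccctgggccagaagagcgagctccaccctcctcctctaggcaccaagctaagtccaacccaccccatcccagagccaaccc
Searched were the AP-1 motif TGANTCA, the GC box GGGCGG, the E-box CACCTG, the Grainyhead-like motif AACNNGTT and the TATA box TATAAA. The *Cldn4* stretch held 2 AP-1 matches starting 240 and 158 bases before the start, a GC box at 44 bases and an E-box at 14 bases. The *Cldn3* stretch held a GC box at 236 bases. Neither held the Grainyhead-like motif or the TATA box, and no matches overlapped. Of 32851 RefSeq promoters of this length, 6.75% held the AP-1 motif, 32.7% the GC box, 17.2% the E-box, 3.64% the Grainyhead-like motif and 12.4% the TATA box. GC content was 62% for *Cldn4* and 60.8% for *Cldn3*, against a median of 52.4%. A match describes letters only.

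*Cldn4* was measured at 9.92 and 10.9 CPM *in vivo*, 1102 and 1205 CPM in 2D, 54.8 and 54.1 CPM in D3 organoids, and 55.7 and 65.8 CPM in D7 organoids. The 2D libraries stood far above all others, both organoid groups stood between them and the *in vivo* libraries, and no group overlapped the *in vivo* or 2D values. *Cldn4* was 111-fold lower *in vivo* than in 2D (log2 fold change -6.79, SE 0.19, adjusted p = 1.6e-13 by edgeR's quasi-likelihood test). It was 5.22-fold lower *in vivo* than in D3 organoids (SE 0.18 on the log2 scale, adjusted p = 1.9e-08) and 5.81-fold lower than in D7 organoids (SE 0.18, adjusted p = 1e-08). D7 and D3 organoids did not pass the test (log2 difference 0.15, SE 0.16, adjusted p = 0.53).

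*Cldn3* followed the same order of groups. It was measured at 4.87 and 3.81 CPM *in vivo*, 313 and 325 CPM in 2D, 15.2 and 13.4 CPM in D3 organoids, and 38.7 and 34 CPM in D7 organoids. No 2 groups overlapped, and each step in this order passed the test. *Cldn3* was 73.8-fold lower *in vivo* than in 2D (log2 fold change -6.21, SE 0.22, adjusted p = 1.8e-12), and 3.31-fold lower *in vivo* than in D3 organoids (SE 0.23, adjusted p = 2.3e-05). Between D3 and D7 organoids it rose 2.55-fold (log2 fold change 1.35, SE 0.19, adjusted p = 0.00012).

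*Cldn7* encodes a claudin of the lateral membrane that binds EpCAM (chromosome 11, 69852648 to 69858711, plus strand). It was measured at 0.348 and 2.26 CPM *in vivo*, 65.5 and 70.9 CPM in 2D, 5.07 and 2.8 CPM in D3 organoids, and 8.06 and 13.2 CPM in D7 organoids. The *in vivo* values rest on 2 and 16 counts, so the *in vivo* mean is poorly fixed, while the 4 groups did not overlap. *Cldn7* was 48.7-fold lower *in vivo* than in 2D (log2 fold change -5.60, SE 0.45, adjusted p = 2.5e-08), with -4.90 without *in vivo* replicate 1 and -7.54 without *in vivo* replicate 2. It was 7.47-fold lower *in vivo* than in D7 organoids (SE 0.49, adjusted p = 0.00018), with log2 values of -2.19 and -4.82 without the same libraries. Against D3 organoids it missed the threshold (log2 difference -1.47, SE 0.54, adjusted p = 0.053) and passed it in 6 of 9 alternative settings that kept every library and in 4 of 8 fits with a library left out, where the log2 value lay between -3.41 and -0.77. The rise from D3 to D7 (2.69-fold, log2 SE 0.41, adjusted p = 0.021) was lost without D3 replicate 2 (adjusted p = 0.22), without D7 replicate 2 (adjusted p = 0.19) and in a fit of the organoid and *in vivo* libraries alone (adjusted p = 0.12). Exons of *Cldn7* overlap those of *Elp5* on the other strand, and the strand used in counting is not given in the sources used here. *Elp5* had 135 to 310 counts in the 8 libraries, with 200 and 213 in 2D.

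*Cldn6* encodes a claudin of embryonic epithelia (chromosome 17, 23898223 to 23901420, plus strand). It was measured at 3.48 and 0.423 CPM *in vivo*, 418 and 412 CPM in 2D, 9.8 and 12.3 CPM in D3 organoids, and 0.992 and 2.17 CPM in D7 organoids. The 2D libraries were the highest, D3 organoids came next, and the *in vivo* and D7 values overlapped near the floor. *Cldn6* was 226-fold lower *in vivo* than in 2D (log2 fold change -7.82, SE 0.39, adjusted p = 6.7e-11), a value that rests on 20 and 3 counts *in vivo* and became -9.87 without *in vivo* replicate 1 and -6.90 without *in vivo* replicate 2. Against D3 organoids it was 6.05-fold lower *in vivo* (SE 0.44, adjusted p = 0.00024), with log2 values of -4.65 and -1.68 without the same libraries. It fell by 2.90 on the log2 scale from D3 to D7 organoids (SE 0.46, adjusted p = 0.00036), the only member called lower at D7 than at D3. D7 organoids were 279-fold below 2D (log2 fold change -8.13, SE 0.40, adjusted p = 7.4e-11), a value that rests on 8 and 11 counts in D7 organoids.

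*Cldn1*, whose product is needed for the barrier of the epidermis (chromosome 16, 26175392 to 26190596, minus strand), was measured at 2.09 and 3.67 CPM *in vivo*, 57.5 and 50.7 CPM in 2D, 2.03 and 1.68 CPM in D3 organoids, and 1.98 and 0.791 CPM in D7 organoids. It stood apart in 2D alone: *in vivo* it was 18.4-fold lower than in 2D (log2 fold change -4.20, SE 0.36, adjusted p = 5.3e-08), and neither organoid group passed the test against the *in vivo* group. The *in vivo* log2 difference was 0.66 against D3 organoids (SE 0.45, adjusted p = 0.31) and 0.97 against D7 organoids (SE 0.47, adjusted p = 0.12). D3 organoids were 29.1-fold lower than 2D (SE 0.38, adjusted p = 2.7e-08) and D7 organoids 35.9-fold lower (SE 0.39, adjusted p = 1.4e-08), the latter with a log2 value of -6.06 without D7 replicate 1 against -5.16 with it.

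*Cldn12* encodes a claudin without the usual tail that binds zonula occludens proteins (chromosome 5, 5539537 to 5564995, minus strand), and its fold differences were small beside those of the other claudins. It was measured at 19.7 and 13 CPM *in vivo*, 28.4 and 31.2 CPM in 2D, 10.8 and 16.9 CPM in D3 organoids, and 12.4 and 11.1 CPM in D7 organoids. The 2D libraries were above all others, and the *in vivo* and D3 values overlapped. The difference between *in vivo* and 2D (1.83-fold lower *in vivo*, log2 -0.87, SE 0.29, adjusted p = 0.02) did not hold with scaling by library size alone (adjusted p = 0.071), without *in vivo* replicate 2 (adjusted p = 0.15) or without 2D replicate 1 (adjusted p = 0.06) or 2 (adjusted p = 0.1). D7 organoids were 2.52-fold lower than 2D (SE 0.29, adjusted p = 0.0013). D3 organoids were 2.13-fold lower (SE 0.29, adjusted p = 0.0061), which was lost without D3 replicate 1 (adjusted p = 0.08).

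*Ocln*, a MARVEL protein of the junction strands (chromosome 13, 100630334 to 100689535, minus strand), was measured at 1.39 and 4.94 CPM *in vivo*, 40.4 and 36.2 CPM in 2D, 4.22 and 4.61 CPM in D3 organoids, and 8.31 and 7.71 CPM in D7 organoids. The 2D libraries again stood apart, and the *in vivo* and D3 values overlapped. *Ocln* was 11.7-fold lower *in vivo* than in 2D (log2 fold change -3.54, SE 0.40, adjusted p = 1.7e-06), with log2 values of -2.95 and -4.77 without *in vivo* replicate 1 and 2. The lower level *in vivo* than in D7 organoids (2.45-fold, log2 -1.29, SE 0.42, adjusted p = 0.024) became -2.51 on the log2 scale without *in vivo* replicate 2 and -0.69 without *in vivo* replicate 1. The call was lost without *in vivo* replicate 1 (adjusted p = 0.18), without D7 replicate 1 (adjusted p = 0.093) and without D7 replicate 2 (adjusted p = 0.061). D7 and D3 organoids did not overlap, but the log2 difference of 0.86 did not pass the test (SE 0.40, adjusted p = 0.15), and passed it in 1 of 8 fits with a library left out (adjusted p = 0.049 without *in vivo* replicate 1). Against D3 organoids the *in vivo* log2 value lay between -1.66 and 0.16 with a library left out, and passed the test at -1.66, without *in vivo* replicate 2 (adjusted p = 0.025).

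The scaffold gene *Tjp1*, encoding ZO-1 (chromosome 7, 64945898 to 65177529, minus strand), was measured at 30.5 and 32 CPM *in vivo*, 102 and 128 CPM in 2D, 45.5 and 40.8 CPM in D3 organoids, and 43.9 and 40.7 CPM in D7 organoids. Both 2D libraries were above the rest and the organoid groups overlapped. *Tjp1* was 3.67-fold lower *in vivo* than in 2D (log2 fold change -1.88, SE 0.19, adjusted p = 3.8e-07), and D3 and D7 organoids were 2.66-fold and 2.71-fold lower than 2D. The organoids did not pass the test against the *in vivo* group, with log2 differences of -0.46 for *in vivo* over D3 (SE 0.19, adjusted p = 0.079) and -0.44 over D7 (SE 0.19, adjusted p = 0.084). With scaling by library size alone the D3 difference passed (-0.54, adjusted p = 0.044).

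*Tjp3*, encoding ZO-3, a scaffold found mainly in epithelia (chromosome 10, 81109034 to 81127417, minus strand), had another pattern. It was measured at 1.04 and 1.27 CPM *in vivo*, 11.6 and 5.75 CPM in 2D, 10.6 and 6.01 CPM in D3 organoids, and 12.9 and 8.5 CPM in D7 organoids. The *in vivo* libraries, with 6 and 9 counts, were below all others and the 3 cultured groups overlapped. *Tjp3* was lower *in vivo* by 7.36-fold against 2D (log2 SE 0.56, adjusted p = 0.00048), 7.01-fold against D3 organoids (SE 0.55, adjusted p = 0.00091) and 9.12-fold against D7 organoids (SE 0.55, adjusted p = 0.00023). Without 2D replicate 1 the log2 difference from 2D was -2.29 against -2.88 with it (adjusted p = 0.013). Between cultured groups the log2 differences were 0.31 for D7 over 2D (SE 0.45, adjusted p = 0.61), -0.07 for D3 over 2D (SE 0.45, adjusted p = 0.92) and 0.38 for D7 over D3 (SE 0.45, adjusted p = 0.6). The sign for D3 over 2D turned with library size alone (0.18). Exons of *Tjp3* overlap those of *Apba3* on the other strand, which had 1 to 64 counts per library.

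**Figure D1:**
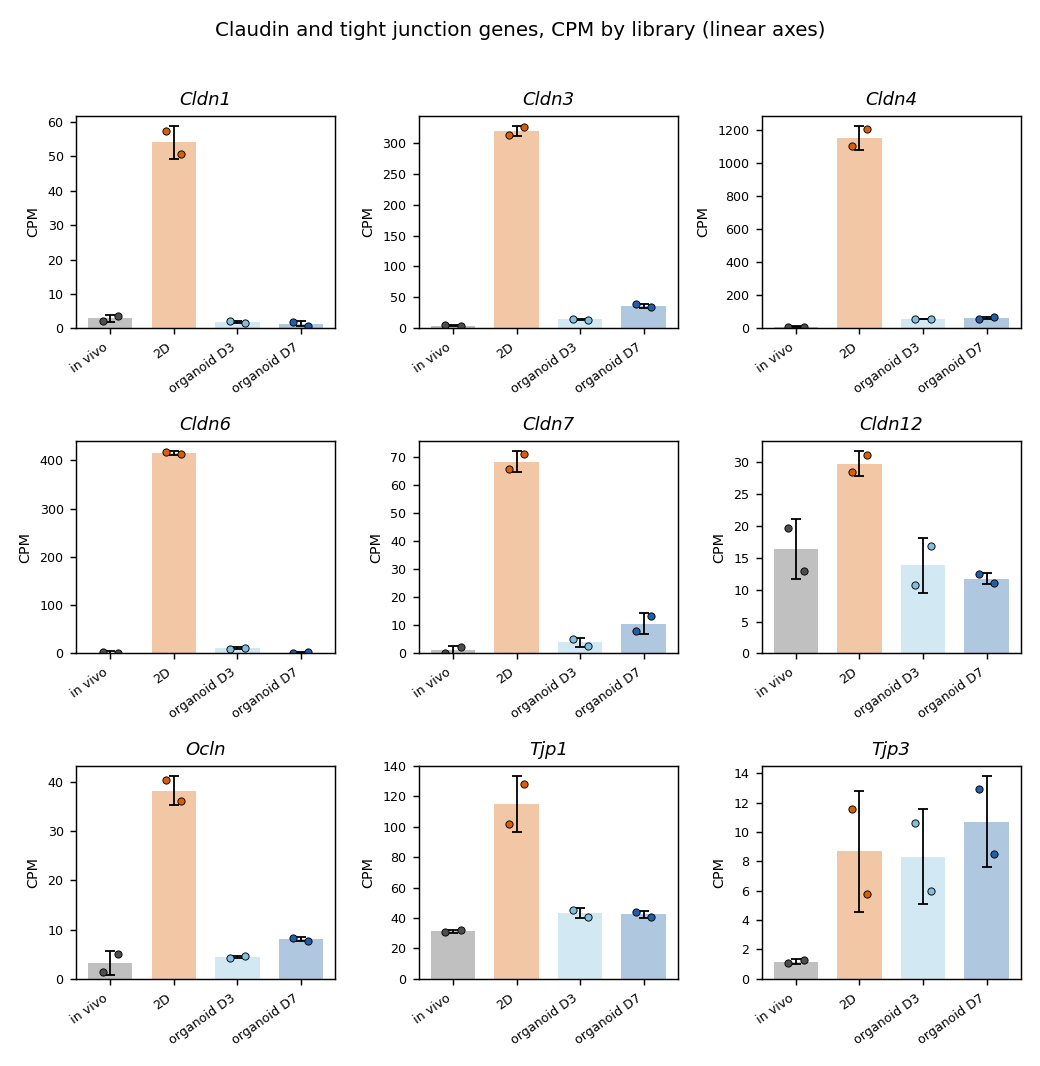
CPM of the 9 members on linear axes that start at 0, one panel per gene, for *in vivo* TECs, 2D TECs and organoids at D3 and D7. Bars are means of 2 libraries, error bars their SD and points the libraries; the 2D bar is the highest for every gene but *Tjp3*, which is low *in vivo* alone.

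The 4 groups form 6 comparisons that share libraries, and the values of each are given on their own. A gene was called where its adjusted p was at most 0.05. The members were chosen with earlier results of these data known. Counts of members called therefore describe these 9 genes and are no test of tight junction genes at large. Between *in vivo* and 2D TECs all 9 members were called, all lower *in vivo*, where 41.6% of tested genes were called and 19.9% were called lower. The median log2 fold change of the members was -4.20, and that of all genes 0.06. The number of members called was 8 or 9 under every alternative setting and with any library left out. Beside this contrast, thymocyte markers moved as given above, cortical TEC markers (8 genes) summed to 8613 to 8867 CPM *in vivo* and 670 to 772 CPM in 2D, and medullary TEC markers (10 genes) to 451 to 455 CPM and 1833 to 1859 CPM. The medullary sum in 2D was mostly *Krt14* and *Krt5*, with means of 983 and 694 CPM. By gene, all 8 cortical markers were called higher *in vivo* than in 2D, while 4 medullary markers were called higher and 3 lower. The part of all these markers in the members' differences was not tested.

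Organoids also had lower levels than 2D TECs. In D7 organoids 8 members were lower than in 2D, all but *Tjp3*, with 45.5% of tested genes called and 21.1% called lower, and with a median log2 fold change of -2.70 for the members and 0.10 for all genes. In D3 organoids, matched to 2D for days in culture, the same count of 8 members was lower, again all but *Tjp3*, with 38.3% of genes called and 19.1% called lower. Here the medians were -4.13 for the members and 0.03 for all genes. Thymocyte markers were at 3.72 to 13.7 CPM in all 6 libraries of these contrasts. Cortical markers summed to 446 to 464 CPM in D3 and 1148 to 1223 CPM in D7 organoids, and medullary markers to 252 to 350 CPM and 133 to 137 CPM. A few genes carried such sums: *Ctsl* had a mean of 664 CPM in 2D, and *Krt5* 243 CPM in D3 and 69.7 CPM in D7 organoids. Over 2D, 7 cortical markers were called higher and 1 lower in D7 organoids, and 2 higher and 2 lower in D3 organoids. For medullary markers, 1 was higher and 3 lower in D7 organoids, and 0 higher and 6 lower in D3 organoids. The part of either marker list was not tested. Scaling by library size alone shifted the median of all genes against 2D by 0.182 (*in vivo*), 0.204 (D7) and 0.261 (D3) on the log2 scale. The share of called genes that were lower in 2D then changed from 52.2% to 63.1%, from 53.7% to 65.2% and from 50.3% to 67.2%. The called members kept their direction with that scaling, and *Cldn12* alone lost a call against 2D, in the *in vivo* comparison.

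Between *in vivo* TECs and organoids about as many members differed as did not. *Cldn3*, *Cldn4*, *Cldn7*, *Ocln* and *Tjp3* were lower *in vivo* than in D7 organoids, 5 of 9, where 34.8% of genes were called and 18% were called lower. The median log2 fold change was -1.29 for the members and -0.01 for all genes. *Cldn3*, *Cldn4*, *Cldn6* and *Tjp3* were lower *in vivo* than in D3 organoids, 4 of 9, where 28.2% of genes were called and 14.1% were called lower, with medians of -1.47 and 0.01. Thymocyte markers (4 of 8 genes, with *Cd3e*, *Cd3g*, *Cd4* and *Cd8a* not tested) and cortical TEC markers (8 of 8) were called higher *in vivo* in both of these comparisons. Of all 14504 tested genes, 2436 were called higher *in vivo* than in D7 organoids and 2036 than in D3 organoids. The number of members called between *in vivo* and D3 organoids was 3 to 6 over the alternatives that kept every library. It was 6 with library size alone, and 3 where a filter at a mean of 10 CPM left *Tjp3* untested. From D3 to D7, *Cldn3* and *Cldn7* rose and *Cldn6* fell, 3 of 9, where 20.8% of genes were called, 10.9% higher and 9.91% lower at D7, with medians of 0.15 and 0.06. Over the same step summed mesenchymal markers went from 18.3 to 22.1 CPM to 71.4 to 80.9 CPM (3 of 8 genes called higher), myeloid markers from 0.419 to 0.676 CPM to 11.3 to 12.3 CPM (1 of 6), and cortical TEC markers rose in 7 of 8 genes. Among medullary TEC markers, 4 were called higher and 2 lower at D7. The part of these markers in the members' differences was not tested.

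**Figure D2:**
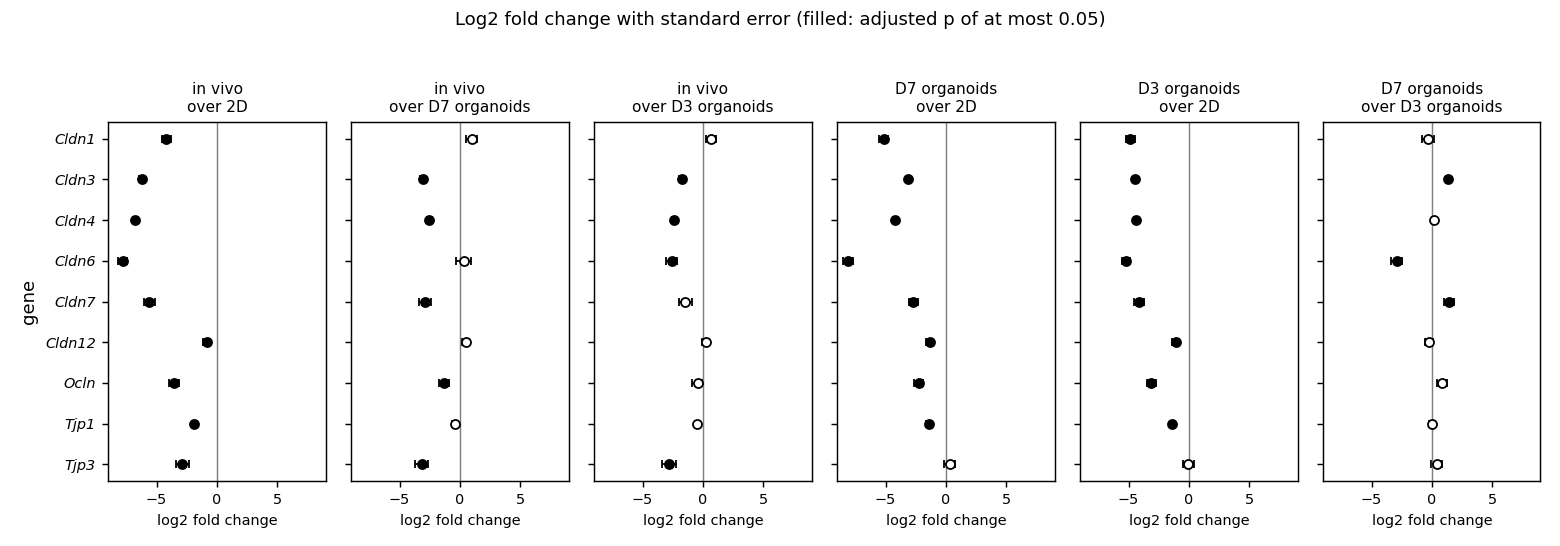
Log2 fold changes of the 9 members in the 6 comparisons, with horizontal bars for the standard error; filled points have an adjusted p of at most 0.05 (edgeR quasi-likelihood test). Against 2D nearly all points lie left of 0, while D7 over D3 has points on both sides.

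The other claudins did not all follow the members. Of 30 claudin genes listed, 29 were in the count files, 13 were at the floor in every library, 10 of these at 0 throughout, and 11 were tested, 5 of them outside the members. *Cldn9*, expressed in the inner ear, and *Cldn23* were high in 2D, like the members. *Cldn9* was measured at 2.26 and 1.97 CPM *in vivo*, 35.6 and 26.4 CPM in 2D, 7.44 and 5.17 CPM in D3 organoids, and 4.09 and 4.55 CPM in D7 organoids. It was 14.6-fold lower *in vivo* than in 2D (log2 SE 0.39, adjusted p = 3.5e-07). *Cldn9* ends 137 bases from the end of *Cldn6* on the opposite strand, so reads that ran from one gene into the other could not be told apart without the strand. *Cldn23* was measured at 0 and 1.55 CPM *in vivo*, 15.3 and 13.4 CPM in 2D, 0 and 1.4 CPM in D3 organoids, and 0.744 and 0.198 CPM in D7 organoids. It was 17-fold lower *in vivo* than in 2D (log2 SE 0.97, adjusted p = 0.0027 by edgeR and 0.1 by DESeq2), a value that rests on 0 and 11 counts *in vivo* and was -3.19 on the log2 scale without *in vivo* replicate 1 against -4.09 with it. Without *in vivo* replicate 2 the *in vivo* group was at 0.

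*Cldn11*, *Cldn10* and *Cldn8* were not high in 2D. *Cldn11*, known from myelin and Sertoli cells, was measured at 0.174 and 0.846 CPM *in vivo*, 0 and 0.186 CPM in 2D, 8.11 and 11.5 CPM in D3 organoids, and 87.5 and 85.2 CPM in D7 organoids. Only organoids had it clearly above the floor, and it was 8.76-fold higher at D7 than at D3 (log2 fold change 3.13, SE 0.28, adjusted p = 1.4e-06). *Cldn10*, encoding an ion-channel-forming claudin, was measured at 0 and 0.423 CPM *in vivo*, 1.27 and 1.3 CPM in 2D, 0.845 and 1.12 CPM in D3 organoids, and 21.8 and 17.4 CPM in D7 organoids. It rose from D3 to D7 by 4.28 on the log2 scale (SE 0.59, adjusted p = 0.00011). *Cldn8*, known from the kidney collecting duct, was measured at 21.8 and 13 CPM *in vivo*, 2 and 1.11 CPM in 2D, 2.03 and 5.45 CPM in D3 organoids, and 12.3 and 10.5 CPM in D7 organoids. It was the only tested claudin called higher *in vivo* than in 2D (11-fold, log2 SE 0.53, adjusted p = 4.6e-05). Its rise from D3 to D7 (log2 1.58, SE 0.46, adjusted p = 0.023) was lost without D3 replicate 1 (adjusted p = 0.19), D7 replicate 1 (adjusted p = 0.11) or D7 replicate 2 (adjusted p = 0.074). Of the 5 tested claudins outside the members, 3 (*Cldn9*, *Cldn10* and *Cldn23*) were lower and 1 higher *in vivo* than in 2D. The shares over all tested genes were 19.9% and 21.7%. From D3 to D7 organoids 3 of the 5 rose and 0 fell, against 10.9% and 9.91% of all tested genes. The members were chosen with earlier results of these data known. Counted with them, 5 of 11 tested claudins rose and 1 fell from D3 to D7, and 9 were lower and 1 higher *in vivo* than in 2D. The 9 include *Cldn10* (log2 -2.38, SE 0.89, adjusted p = 0.041), which rests on 0 and 3 counts *in vivo* and was not called with library size alone (adjusted p = 0.061), by limma-voom (adjusted p = 0.12), or in 5 of 8 fits with a library left out (*in vivo* replicate 1, either 2D library or either D7 library, adjusted p between 0.071 and 0.18).

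Other membrane proteins of the junction, apart from occludin, were mostly lower *in vivo* than in culture. Of 12 listed genes 8 were tested, and 7 were lower *in vivo* than in 2D, with 0 higher and a median log2 fold change of -3.50, where 19.9% of all tested genes were lower. Likewise 7 were lower *in vivo* than in D7 and 5 than in D3 organoids, against 18% and 14.1% of all genes. *F11r*, encoding the adhesion protein JAM-A, was measured at 26.5 and 31.2 CPM *in vivo*, 252 and 233 CPM in 2D, 70.5 and 69.8 CPM in D3 organoids, and 100 and 115 CPM in D7 organoids. No groups overlapped, and it was 8.39-fold lower *in vivo* than in 2D (log2 SE 0.18, adjusted p = 3.4e-10). *Marveld2*, encoding tricellulin of the corners where several cells meet, was measured at 2.61 and 1.83 CPM *in vivo*, 54.4 and 40.7 CPM in 2D, 4.22 and 2.8 CPM in D3 organoids, and 8.19 and 3.95 CPM in D7 organoids. It was 21.5-fold lower *in vivo* than in 2D (log2 SE 0.40, adjusted p = 9.5e-08), and its difference from D7 organoids (adjusted p = 0.012) was lost without *in vivo* replicate 2 (adjusted p = 0.077), without D7 replicate 1 (adjusted p = 0.26) and by limma-voom (adjusted p = 0.067).

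*Marveld3* and the virus receptor gene *Cxadr*, both junction membrane proteins, were higher in all cultured groups than *in vivo*. *Marveld3* was measured at 0.174 and 1.27 CPM *in vivo*, 15.6 and 26.5 CPM in 2D, 15 and 14.7 CPM in D3 organoids, and 17 and 20.8 CPM in D7 organoids. Like *Tjp3* it was low *in vivo* alone, with a log2 difference of -4.24 from D3 organoids (SE 0.51, adjusted p = 5.6e-06) and -0.50 for D3 over 2D (SE 0.35, adjusted p = 0.28). The *in vivo* values rest on 1 and 9 counts, and the difference from D3 organoids was -3.52 without *in vivo* replicate 1 and -6.27 without *in vivo* replicate 2. *Cxadr* was measured at 7.83 and 7.33 CPM *in vivo*, 117 and 116 CPM in 2D, 43.9 and 50.7 CPM in D3 organoids, and 59.9 and 61.3 CPM in D7 organoids. It was 15.3-fold lower *in vivo* than in 2D (log2 SE 0.21, adjusted p = 1.4e-10).

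Scaffold and polarity genes outside the members moved in both directions and by less. All 24 listed were tested, and 12 were lower and 4 higher *in vivo* than in 2D, with a median log2 fold change of -0.61. Of all tested genes 19.9% were lower and 21.7% higher. Cingulin (*Cgn*), a cytoplasmic plaque protein, was measured at 51 and 41.3 CPM *in vivo*, 65.5 and 59.8 CPM in 2D, 67.8 and 58 CPM in D3 organoids, and 47.6 and 29.9 CPM in D7 organoids. *Cgn* did not pass the test between *in vivo* and 2D (log2 -0.44, SE 0.22, adjusted p = 0.12). *Crb3*, encoding an apical polarity protein, had 0 counts in both *in vivo* libraries, 33.8 and 19.7 CPM in 2D, 1.35 and 3.91 CPM in D3 organoids, and 5.09 and 3.56 CPM in D7 organoids. Against a floor of 3 counts in each *in vivo* library, *Crb3* was at least 9.15-fold higher in D7 organoids, at least 5.57-fold in D3 organoids and at least 56.6-fold in 2D.

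Among the remaining scaffold and polarity genes, *Amotl2* of the angiomotin family was 6.56-fold higher in 2D than *in vivo* (log2 SE 0.29, adjusted p = 7.5e-07) and 13.8-fold higher than in D3 organoids (log2 SE 0.31, adjusted p = 4.6e-08), or 22-fold without D3 replicate 1. The polarity gene *Pard6b* was higher in 2D than *in vivo* (log2 value of *in vivo* over 2D -2.41, SE 0.35, adjusted p = 3.2e-05), while its relative *Pard6g* was higher *in vivo* (1.29, SE 0.15, adjusted p = 2.8e-06). *Rab13*, encoding a GTPase of junction traffic, was higher in organoids, with 12.2 and 15 CPM *in vivo*, 25.5 and 20 CPM in 2D, 68.6 and 61.9 CPM in D3 and 57.1 and 59.5 CPM in D7 organoids. The cingulin relative *Cgnl1* rose from D3 to D7 (log2 2.27, SE 0.22, adjusted p = 3.3e-06). *Prkci*, an atypical protein kinase C, was measured at 50.4 and 50.5 CPM in D3 and 25.3 and 6.72 CPM in D7 organoids. It fell by 1.59 on the log2 scale over this step (SE 0.37, adjusted p = 0.0057 by edgeR and 0.06 by DESeq2), with values of -2.90 without D7 replicate 1 and -0.99 without D7 replicate 2.

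**Figure D3:**
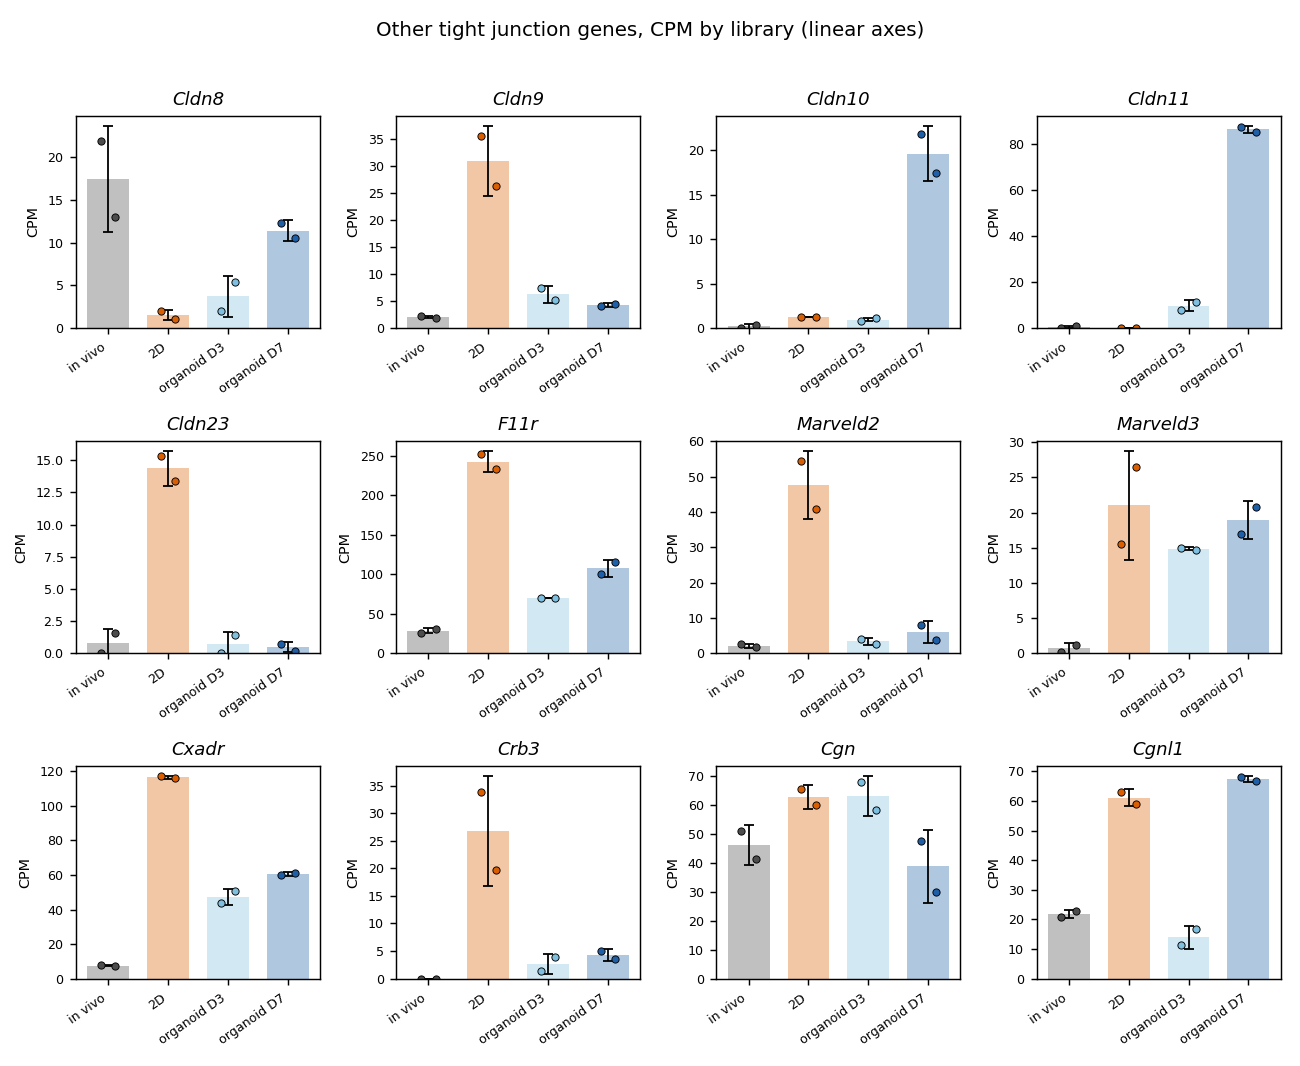
CPM of 12 tight junction genes outside the members on linear axes that start at 0, for the same 4 groups. Bars are means of 2 libraries, error bars their SD and points the libraries; *Cldn9*, *Cldn23*, *F11r*, *Marveld2* and *Cxadr* are highest in 2D, while *Cldn10* and *Cldn11* are highest in D7 organoids and *Cldn8* *in vivo*.

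EpCAM binds claudins and slows their breakdown. Its gene was listed with those of the membrane protease matriptase (*St14*), its partner *Prss8* and the protease inhibitors *Spint1* and *Spint2*. All 5 of these genes were called lower *in vivo* than in 2D, where 19.9% of all tested genes were called lower. Their median log2 fold change was -1.95, against 0.06 for all genes. *St14* was measured at 10.1 and 8.46 CPM *in vivo*, 114 and 128 CPM in 2D, 31.1 and 37.5 CPM in D3 organoids, and 30.5 and 20.4 CPM in D7 organoids, 13.1-fold lower *in vivo* than in 2D (log2 SE 0.24, adjusted p = 1.9e-09). *Epcam*, the gene of the sort marker, was 3.88-fold lower *in vivo* than in 2D (log2 SE 0.14, adjusted p = 7.5e-09), with 192 and 205 CPM against 814 and 724 CPM. *Spint1* was measured at 23.2 and 39.4 CPM *in vivo* and 166 and 148 CPM in 2D, 4.99-fold lower *in vivo* (log2 SE 0.23, adjusted p = 2.6e-07). *Prss8* was instead highest in D7 organoids, at 36.6 and 40.9 CPM against 11.6 and 11.9 CPM in 2D (log2 1.72, SE 0.26, adjusted p = 4.4e-05). Its smaller difference between *in vivo* and 2D (log2 -0.86, adjusted p = 0.023) did not hold with library size alone (adjusted p = 0.071), by limma-voom (adjusted p = 0.07) or without any one *in vivo* or 2D library (adjusted p between 0.055 and 0.075). *Spint2* fell by 1.11 on the log2 scale from D3 to D7 (SE 0.27, adjusted p = 0.0074), which was lost without D3 replicate 2 (adjusted p = 0.12) or D7 replicate 2 (adjusted p = 0.098).

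The listed epithelial transcription factors differed in their patterns. Of 13 epithelial factors tested, 3 were higher and 6 lower *in vivo* than in 2D, and 7 were higher and 1 lower in D7 organoids than in 2D. Of all tested genes 21.7% were higher and 19.9% lower *in vivo* than in 2D, and 24.4% higher and 21.1% lower in D7 organoids than in 2D. The 7 include *Grhl2*, *Elf5* (adjusted p = 0.044) and *Ovol1* (adjusted p = 0.039), and over all alternatives and left-out libraries the count was 4 to 8. *Elf5* was not called without 2D replicate 1 or either D7 library, nor *Ovol1* without any one 2D or D7 library or by DESeq2 (adjusted p = 0.06). *Grhl2*, a Grainyhead-like factor that activates *Cldn4*, was measured at 57.4 and 72.1 CPM *in vivo*, 57.5 and 63.5 CPM in 2D, 56.4 and 63.7 CPM in D3 organoids, and 77.4 and 89.4 CPM in D7 organoids. Its *in vivo*, 2D and D3 values overlapped, with a log2 difference of 0.10 between *in vivo* and 2D (SE 0.18, adjusted p = 0.7), and its call for D7 over 2D (log2 0.46, SE 0.18, adjusted p = 0.049) was lost in most alternatives (adjusted p = 0.072 with DESeq2 size factors). *Klf4*, which is active in barrier-forming epithelia, was highest in 2D and next highest *in vivo*, with 75 and 83.9 CPM *in vivo*, 208 and 216 CPM in 2D, 24.7 and 14 CPM in D3 organoids, and 28.5 and 30.6 CPM in D7 organoids. The log2 fold change of D3 organoids over 2D was -3.46 (SE 0.23, adjusted p = 2.7e-09), and that of *in vivo* over D3 organoids 2.05 (SE 0.22, adjusted p = 1.6e-06). *Ehf* and *Klf5* were highest in D7 organoids, where *Ehf* was 9.14-fold above the *in vivo* group (log2 SE 0.26, adjusted p = 6.8e-08) and *Klf5* 6.27-fold (log2 SE 0.22, adjusted p = 6.1e-08).

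*Trp63*, a factor of basal epithelial cells and TEC progenitors, and *Snai2*, encoding a repressor of claudin and occludin genes, had their lowest levels in 2D. *Snai2* was measured at 258 and 253 CPM *in vivo*, 39.3 and 39.9 CPM in 2D, 126 and 113 CPM in D3 organoids, and 82.6 and 68.6 CPM in D7 organoids. It was 6.45-fold higher *in vivo* than in 2D (log2 fold change 2.69, SE 0.17, adjusted p = 1.2e-09) and 3.01-fold higher in D3 organoids than in 2D (SE 0.17, adjusted p = 8.3e-07). *Trp63* was measured at 115 and 136 CPM *in vivo*, 14.2 and 14.3 CPM in 2D, 75.9 and 73.5 CPM in D3 organoids, and 76.3 and 66.6 CPM in D7 organoids, 8.79-fold higher *in vivo* than in 2D (log2 SE 0.20, adjusted p = 9.7e-10). Of 6 mesenchymal factors listed with *Snai2*, 4 were tested, and 2 were higher and 0 lower *in vivo* than in 2D, where 21.7% of all tested genes were higher. They were *Snai2* and *Zeb1*, and *Zeb1* (log2 2.52, SE 0.78, adjusted p = 0.016) was not called without *in vivo* replicate 1 (adjusted p = 0.088), 2D replicate 1 (adjusted p = 0.083) or 2D replicate 2 (adjusted p = 0.061). Further list genes with called differences were *Grhl1* (log2 2.47 for D7 over 2D, SE 0.33, adjusted p = 1.2e-05), *Tfap2c* (2.77 for D3 over 2D, SE 0.35, adjusted p = 7.4e-06) and *Tfap2a* (-3.22 for *in vivo* over D7, SE 0.56, adjusted p = 0.00026). Without 2D replicate 1 the values were 3.18 for *Grhl1* and 3.46 for *Tfap2c*. *Tfap2a* was measured at 2.26 and 0.564 CPM *in vivo* (13 and 4 counts) and 12.3 and 13.4 CPM in D7 organoids, and its value was -4.45 without *in vivo* replicate 1 and -2.49 without *in vivo* replicate 2.

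**Figure D4:**
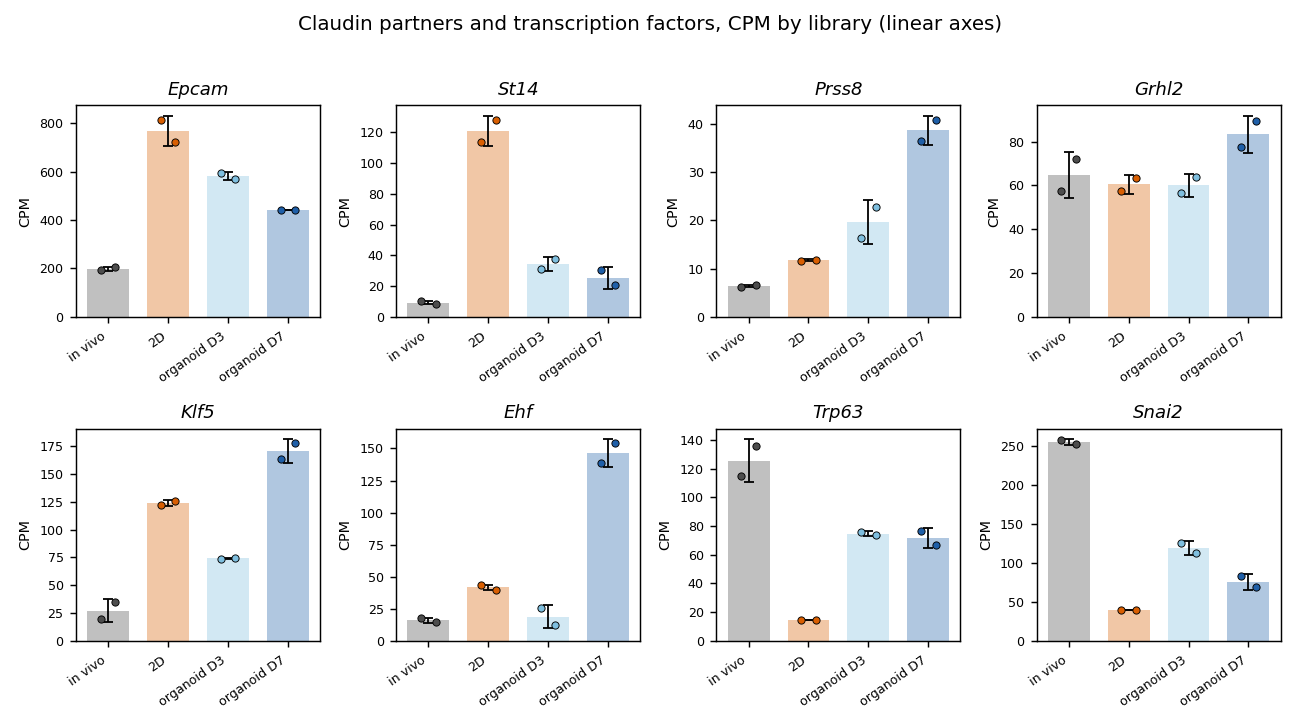
CPM of 3 claudin partner or protease genes and 5 transcription factors on linear axes that start at 0, for the same 4 groups. Bars are means of 2 libraries, error bars their SD and points the libraries; *Epcam* and *St14* are highest in 2D, *Trp63* and *Snai2* are lowest there, and *Ehf* and *Klf5* are highest in D7 organoids.

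Likeness of pattern was taken as the root mean square difference of log2(CPM + 0.5), centred on each gene's mean over the 8 libraries, among 9017 genes with a mean of at least 10 CPM. It is a description, since the points share libraries and groups. The 0.5 added to each CPM sets the value of a gene near 0, so the ranks were also taken with 0.1, 2 and 5 added, settings chosen after the data were seen. Nearest to *Cldn4* were *Krt80* (0.21), *Nexn* (0.39) and *Tnfrsf12a* (0.40), against a median of 2.44 over genes. The keratin gene *Krt80* and *Tnfrsf12a* were at or under the floor of 3 counts in both *in vivo* libraries, where *Cldn4* was not, and they ranked 25, 22 and 61 and 24, 44 and 98 with the other offsets, while *Nexn* ranked 1, 4 and 3. *Cldn3* ranked 9 among the genes nearest to *Cldn4* (0.51), and 2, 6 and 5 with the other offsets. *Cldn4* ranked 10 for *Cldn3*, and 7, 15 and 14 with the other offsets. *Cldn7*, on another chromosome, was nearly as close to *Cldn3*, at rank 14 (0.61), and at 23, 18 and 26 with the other offsets. For *Cldn4* it ranked 39 (0.78). Nearest to *Cldn3* were *Ano1* (0.32), *Slc40a1* (0.37) and *Mal* (0.37), of which *Ano1* ranked 1 with every offset.

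Nearest to *Cldn7* were the desmosome plaque gene *Pkp2* (0.33), *Slc40a1* (0.38) and *Kif26b* (0.44). *Cldn6* had no gene as close, with *Prss22* (0.73), *Krt20* (0.91) and *Mcam* (0.92) first, against a median of 3.22 over genes. *Slc40a1*, *Prss22* and *Krt20* were also at or under the floor in both *in vivo* libraries, so that their ranks depend on the offset. Nearest to *Ocln* were *Kctd11* (0.28), *Sgms1* (0.30) and *Eda2r* (0.32), which ranked 1 to 4 with every offset, and nearest to *Cldn1* were *Trpm6* (0.39), *Pmaip1* (0.45) and *Ly6a* (0.46), which ranked 1 to 7. All of these genes had their highest mean in 2D.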

How the data were processed

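RNA of 8 TEC libraries was measured by QuantSeq 3′ sequencing, with 2 biological replicates per group as the labels give them. The deposited values are counts of reads per Ensembl gene, made by the authors with STAR on GRCm39, with no normalization or filter. The annotation release, the strand setting and the treatment of reads with several matches are not given in the sources used here. The submitters' processing notes name R 4.1.2, edgeR and limma. Of 56923 gene identifiers 56236 matched GENCODE symbols and positions, and 687 did not.

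Tested were the 14504 genes that reached 1 CPM in 3 or more libraries, in R 4.3.3 with edgeR 4.0.16 (TMM factors 0.880 to 1.09, quasi-likelihood test, 1 fit of 8 libraries, Benjamini-Hochberg adjustment over all genes, threshold 0.05). CPM values are TMM-scaled. The 18S gene took 16.6% to 24.3% of counts. Alternatives were other scalings, filters on low counts, DESeq2 1.42.0, limma-voom (limma 3.58.1), 6 libraries, a replicate block, no ribosomal RNA genes, and each library left out. The fit was tested on simulated data. Tables and figures were made in Python 3.11.15 with pandas 2.3.3 and matplotlib 3.10.9. Each p-value sets a difference between groups against the spread between libraries within groups. That spread was estimated over all groups and with information shared between genes.

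Genes of the pathway lists were named by a rule: *F11r*, *Marveld2*, *Cgn*, *Cldn9*, *Epcam* and *Grhl2* always, and per list and comparison the 2 called genes with the largest fold change whose higher group reached 10 CPM in each library. Some genes of these lists are not reported here, and the lists are counted without them. The 3 genes nearest in pattern were named for 6 members. Members and lists were chosen with earlier results of these data known.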

Additional observations from a re-analysis of the deposited data

How the results depend on the processing

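The 54 log2 fold changes of the members were recomputed under 9 settings that kept every library, where 468 of 480 values kept their direction and side of the threshold, and with each of 8 libraries left out, where 403 of 432 did. Calls of members that changed are given beside their results or here, and the cause was not tested. With each library left out, a group then resting on 1 library assumed to vary like the others, the number of all genes called ranged from 3016 to 5030 for *in vivo* over D7 organoids (5042 with every library, lowest without D7 replicate 2), and from 1183 to 3418 for D7 over D3 organoids (3012 with every library, 1660 without D3 replicate 1, lowest without D7 replicate 2). The members called there ranged from 4 to 5 and from 2 to 4.

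Signs turned only for differences that did not pass the test. For *Cldn6*, *in vivo* over D7 organoids was 0.31, and -0.24 by limma-voom and -1.74 to 1.24 with a library left out. The same left-out ranges were -0.10 to 0.52 for *Cldn12* and -1.66 to 0.16 for *Ocln* (*in vivo* over D3), -0.12 to 0.89 (D7 over 2D), -0.53 to 0.52 (D3 over 2D) and -0.05 to 0.84 (D7 over D3) for *Tjp3*, and for D7 over D3 -1.20 to 0.11 for *Cldn1*, -0.52 to 0.06 for *Cldn12* and -0.17 to 0.05 for *Tjp1*. *Tjp3* for D3 over 2D was 0.18 with library size alone, and *Tjp1* for D7 over D3 was 0.02 with a mean of at least 10 CPM.

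Same-numbered libraries deviated together only weakly, with correlations of 0.0257 to 0.132 over 6 pairs of groups, and the labels tie the numbers to nothing shared. With the replicate number as a block, 9, 5, 5, 8, 8 and 3 members were called in the 6 comparisons in the order *in vivo* over 2D, D7 and D3, D7 and D3 over 2D, and D7 over D3, against 9, 5, 4, 8, 8 and 3 without it. Of all genes 6366 were then called between *in vivo* and 2D, against 6033, and 3587 between D7 and D3 organoids, against 3012. Low counts *in vivo* limit the fold changes of *Cldn1* (12 and 26 counts), *Cldn6*, *Cldn7*, *Ocln* and *Tjp3*. Those of D7 organoids over 2D also rest on few D7 counts for *Cldn1* (16 and 4) and *Cldn6* (8 and 11).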

Other observations

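The genes around both claudin pairs were chosen by position after the members' values were seen. *Tnfrsf12a*, encoding the TWEAK receptor and lying beside *Cldn6* and *Cldn9* on chromosome 17, had 0 counts in both *in vivo* libraries, 184 and 270 in 2D, 7 and 7 in D3 organoids, and 10 and 4 in D7 organoids. Against a floor of 3 counts in each *in vivo* library it was at least 88.4-fold higher in 2D. *Hcfc1r1*, the next gene on that side, was 2.3-fold lower *in vivo* than in 2D (log2 fold change -1.20, SE 0.17), and *Pkmyt1*, on the other side of the pair, differed by 0.10 (SE 0.38) on the log2 scale. Beside *Cldn4* and *Cldn3* on chromosome 5, *Mettl27* was 1.55-fold lower *in vivo* than in 2D (log2 fold change -0.63, SE 0.22, adjusted p = 0.031 by edgeR), and higher in D7 and D3 organoids than in 2D (1.34 and 1.27). *Abhd11* (-0.44, SE 0.29, adjusted p = 0.26) and *Stx1a* (0.48, SE 0.79, adjusted p = 0.66) did not pass the test between *in vivo* and 2D.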
